A study of Xenopus tropicalis with 4 samples.

Results

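Of 34177 annotated genes in Xenopus tropicalis animal caps, 226 were read mainly from the strand opposite to their own. The caps came from 4 directional RNA-seq libraries, in which sense reads lie on the annotated strand of a gene and antisense reads on the other. The 226 loci were those with more antisense than sense reads in all 4 libraries and at least 100 antisense reads in each. The loci were thus chosen by the same antisense and sense read counts, and these are given as a description. Animal caps are explants of prospective ectoderm, taken at the blastula stage, that develop into epidermis with multiciliated cells. Both groups carried injected Xenopus phf8 mRNA, which encodes, per the study, a partial form of the histone demethylase PHF8 that keeps the N-terminus with its PHD domain and lacks the C-terminal part. The xPhf8 group received this mRNA alone, and the xRescue group received it together with morpholinos against the histone H4K20 methyltransferases Suv4-20H1 and Suv4-20H2. Each group had replicates 1 and 2 at stage NF16, and each library came from about 30 pooled caps. The loci were compared between xPhf8 and xRescue to see whether their antisense level differed with the morpholinos.

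Genes on opposite strands can overlap, often tail to tail, so that the end of one transcript runs through the exons of its neighbour. A directional library keeps the strand of origin, and a read from such an overlap counts as sense for one gene and as antisense for the other. Antisense reads can also come from a transcript that has no annotated model of its own, such as a long non-coding RNA or an extended 3′ end. In an unstranded count, STAR drops a read that lies in exons of more than 1 gene, whatever their strands, so that the reads lost from that count mark the overlaps.

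The 4 libraries held between 26632491 and 43303059 sense reads on genes, and antisense reads made up 1.82% and 2.14% of reads on genes in the xPhf8 replicates against 2.40% and 2.68% for xRescue. Levels are given as CPM, the reads of a gene per 1000000 sense reads on genes in the same library. The minimum of 100 reads corresponded to between 2.31 and 3.75 CPM, and 3 reads corresponded to between 0.0693 and 0.113 CPM. CPM values are not divided by gene length, so that they order genes by reads and not by transcripts. The epidermal label of the tissue was met by epcam at 1175 to 1768, cdh1 at 1060 to 1228 and tp63 at 94.6 to 826 sense CPM. Of 4 markers of other tissues, the neural crest genes sox10 and twist1 reached 0.789 and 9.40, the neural gene ncam1 25.7 and the endodermal gene sox17a 44.5 sense CPM at most. In this bulk RNA, fewer cells of a type and less RNA per cell cannot be told apart.

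The 226 loci took 63.2%, 60.01%, 48.7% and 56.5% of all antisense reads on genes in xPhf8 replicates 1 and 2 and xRescue replicates 1 and 2. Most of the loci were far from balanced between strands. In 151 of them antisense reads were at least 10 times the sense reads in all 4 libraries, 90 had no sense read in any library, and 24 were under 2 times in some library. Their mean antisense level had a median of 19.8 CPM, and the lowest was 4.87 CPM. Of the 226 loci, 149 lay under 30 CPM and 16 above 100 CPM. A symbol was found for 21 of the loci in the study's annotation columns, a LOC identifier for 15 and a bare model name for 20.

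**Figure D1:**
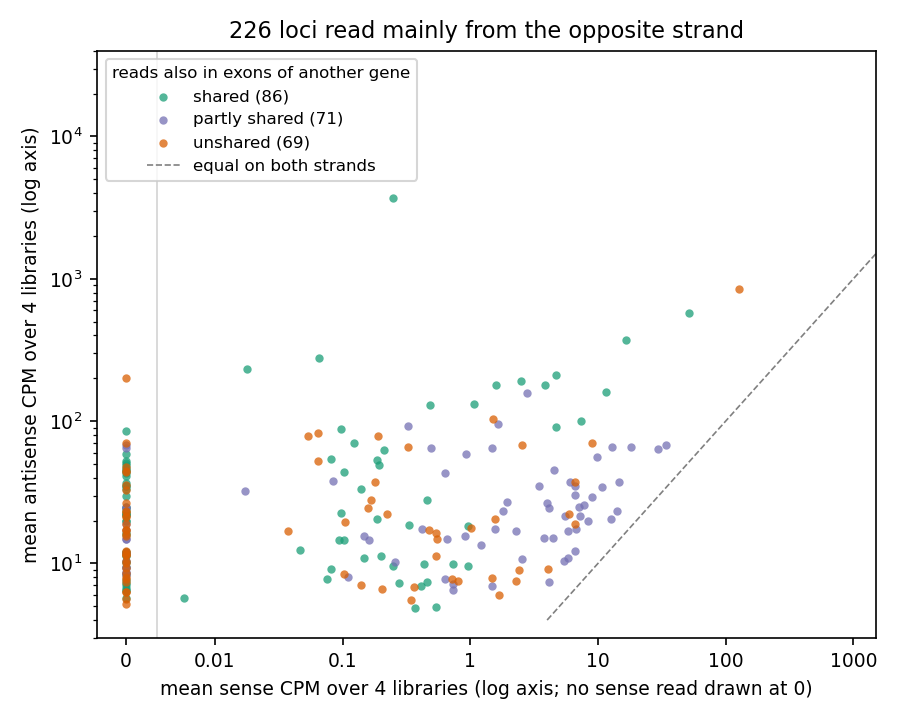
Mean sense level (x axis, CPM, log axis, loci with no sense read drawn at 0) against mean antisense level (y axis, CPM, log axis) of the 226 loci over the 4 libraries, coloured by whether their reads also lay in exons of another gene. All points lie above the dashed line of equal levels, as the rule requires, and 90 loci sit at 0 on the sense axis.

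At the edges of the rule, the fewest antisense reads in any library were 101 for gene8121, 102 for gene9856 and 103 for gene29258, which were inside. The genes gene20283, ifit5 and gene4118 were outside with 97, 97 and 96 reads in their lowest library. The locus closest to balance inside was mus81, the gene of a structure-specific DNA endonuclease, with 165 antisense and 164 sense reads in xPhf8 replicate 1. A total of 568 genes had more antisense than sense reads in all libraries at any depth. Of 357 genes with at least 100 antisense reads in each library, 131 had more sense than antisense reads in at least 1 library and were not members.

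Most of the loci shared their antisense reads with the exons of another annotated gene. For each gene, the share of its stranded reads kept in the unstranded count was taken over the 4 libraries. Of the 226 loci, 86 (38.1%) kept at most 10% of their reads and are called shared. A further 71 (31.4%) were partly shared, and 69 (30.5%) kept at least 90% and are called unshared. Among the other 9426 genes with at least 100 reads on both strands together in each library, 13 (0.138%) were shared, 433 (4.59%) partly shared and 8980 (95.3%) unshared. Thus 86 of the 99 shared genes at this depth were opposite-strand loci. The antisense and sense counts that chose the loci also enter the share kept. The contrast with the other genes therefore follows in part from the rule and is a description. The median share of reads kept was 20.0% for the 226 loci. The mean antisense level did not separate the classes, with medians of 22.4 CPM for shared, 20.4 CPM for partly shared and 17.2 CPM for unshared loci.

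**Figure D2:**
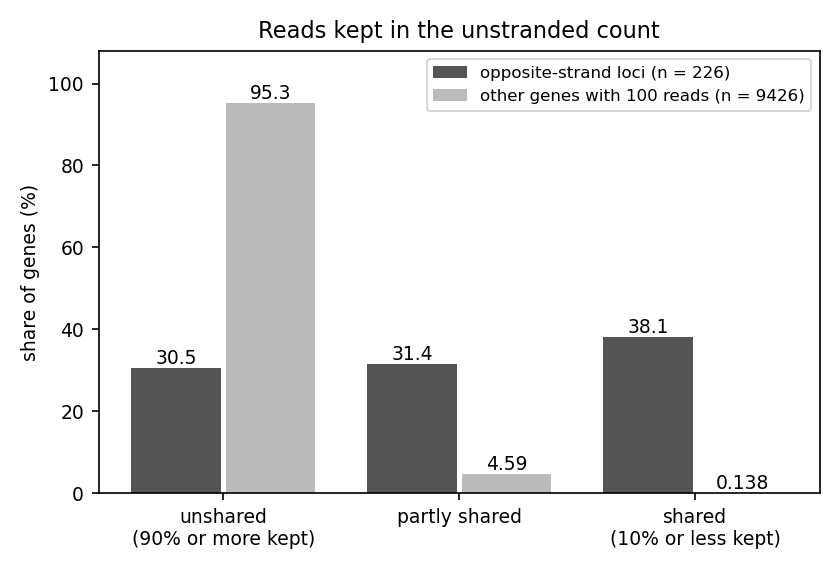
Share of genes (y axis, %) in each class of reads kept in the unstranded count (x axis), for the 226 opposite-strand loci (dark bars) and the other 9426 genes with at least 100 reads (light bars). Shared loci make up 38.1% of the dark bars and 0.138% of the light ones.

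The reads lost from the unstranded count also named the neighbour. A gene was called a count-matched partner where it lost exactly as many reads as the locus in all 4 libraries, with at least 20 in each. Of the 226 loci, 159 lost enough reads to be matched, 109 (48.2%) had exactly 1 such partner, and none had more than 1. None of the 109 partners was itself among the 226 loci, and all 109 had more sense than antisense reads in all libraries. Overlap reads count as sense for a partner on the opposite strand. Both facts thus follow in part from the rule and are no check of the matching. In all 10 pairs for which the study's annotation gave the chromosome of both genes, these were the same chromosome. In the 4 pairs that could be found in RefSeq by name (LOC105948235 with txnip, LOC105947016 with pim1, LOC100485552 with ywhae and srr with tsr1), the spans of the 2 genes overlapped. Where only 1 gene of a pair was found, RefSeq gave a mixed picture. The loci tk1 and colca2 and the partners purb, rps29 and ahnak had no gene overlapping or within 2 kb. The partners gchfr and nop16 did overlap another gene. The lost reads had a median of 98.6% of the antisense reads of the locus and of 18.02% of the sense reads of the partner, with quartiles of 8.28% and 38.7%. On this matching, the lost reads belong mainly to the antisense count of the locus and to the sense count of the partner, and the 2 counts are not independent. The lost reads were at least 90% of the antisense reads of the locus in 75 pairs and under 50% in 9 pairs. In some pairs they exceeded these antisense reads, at 123% for gene4814 and 120.5% for srr, so that some lost reads lay on the other strand. The share of partner sense in the overlap is lost reads over partner sense reads, and is thus an upper limit.

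In some pairs the overlap took up nearly the whole partner. The partner of gene4692 was gchfr, the feedback regulator of GTP cyclohydrolase, and 97.3% of its sense reads were in the overlap. Antisense at gene4692 was 114, 229.5, 91.8 and 209.3 CPM in xPhf8 replicates 1 and 2 and xRescue replicates 1 and 2, and gchfr sense was 118, 235, 94.2 and 216 CPM. The 2 columns followed each other library by library, with replicate 2 high in both groups. The counts of gene24044 and rps29, a protein of the small ribosomal subunit, also followed each other, with 98.8% of the sense reads of rps29 in the overlap. Antisense at gene24044 was 131, 85.4, 60.5 and 63.4 CPM and rps29 sense was 132, 85.4, 62.7 and 65.1 CPM in that order. For gene15735 and purb, the gene of a protein that binds purine-rich single-stranded nucleic acid, the overlap was 96.8% of purb sense. Antisense there was 85.5, 83.1, 185.6 and 173.4 CPM, and the 2 xRescue values were the higher ones. Further pairs of this kind were gene4814 with nop16, a nucleolar protein of ribosome biogenesis, at 86.2% and gene11509 with hes3.1, a basic helix-loop-helix repressor, at 84.8% of partner sense. At gene4814 the lost reads were 123% of its antisense reads, so that 86.2% overstates the share of nop16 sense. At tk1, the thymidine kinase gene of the salvage pathway, antisense was 467, 571, 558 and 705 CPM, and its unnamed partner gene2362 had 530.3, 619, 607 and 773 sense CPM. The sense strand of tk1 itself held between 781 and 1893 reads.

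In other pairs the overlap was a small piece of a highly read partner. The partner of gene9491 was ahnak, a giant scaffold protein of the cell cortex, with 4219 to 10670.2 sense CPM, and only 0.748% of its sense reads lay in the overlap. That share gave gene9491 37.4 to 73.8 antisense CPM, although all of its antisense reads were lost from the unstranded count. At c9orf91 the partner was flna, an actin cross-linking protein, with 567 to 1428 sense CPM, of which 9.49% was in the overlap. Other partners of this kind were the adhesion molecule epcam with 3.79%, the beta-tubulin tubb4b with 3.92%, the actin-binding calponin cnn1 with 0.654%, the signalling adaptor ywhae with 0.490%, the nuclear envelope protein syne1 with 0.757% and the cyclophilin ppia with 1.06% of their sense reads in the overlap. In all, 35 pairs had an overlap under 10% and 19 pairs one of at least 50% of partner sense.

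Between these lay pairs with regulators and enzymes. The locus gene3270 was matched to hal.1, a histidine ammonia-lyase gene of histidine breakdown, with 28.3% of hal.1 sense in the overlap. Antisense at gene3270 was 268, 72.5, 264 and 110.2 CPM, high in replicate 1 and low in replicate 2 of both groups. Other partners were txnip, the thioredoxin-binding protein that restrains glucose uptake (24.0% of its sense reads), the serine/threonine kinase gene pim1 (10.2%), pfkfb1, an enzyme that makes and degrades fructose 2,6-bisphosphate (15.7%), and tnrc6a, a protein of microRNA-guided silencing (28.4%). A transcription factor among these partners was srf, the serum response factor (49.0%). The histone methyltransferase kmt2d (8.28%) and the T-box factor tbx2 (8.45%) belonged with the partners of an overlap under 10%. The gene b3gat2, a glucuronyltransferase, held no sense read and 68.6, 49.5, 69.5 and 70.4 antisense CPM, and 45.6% of the sense reads of its unnamed partner gene29272 were in the overlap.

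Where lost reads were allowed to differ by up to 1% in each library, 13 more loci gained a partner, chosen as an alternative and not used in the counts above. Among them was nme6, a member of the nucleoside diphosphate kinase family, whose lost reads differed by at most 0.280% from those of odf3, a gene of the sperm tail and of motile cilia. Both carried the same chromosome in the study's annotation, and RefSeq places odf3 within 2 kb of nme6. Antisense at nme6 was 272, 212, 50.1 and 91.7 CPM, and odf3 sense was 393, 300.3, 62.6 and 147.6 CPM. Both xRescue libraries were below both xPhf8 libraries on either count. The locus with most reads, gene14135, was matched in this way to the unnamed gene8482, which had 18480 to 30289 sense CPM, 15.4% of it in the overlap. Likewise tipin, a replication fork protein, was matched to the kinase gene map2k1, which RefSeq also places within 2 kb of it, and gene9619 to ccdc47, a protein of the endoplasmic reticulum.

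The 69 unshared loci had nearly all of their reads outside the exons of any other annotated gene, and 51 of them lost no read from the unstranded count. Of the 69, 33 had no sense read in any library, and 29 carried a name of some kind. The highest was gene10137, with 550.005, 229.6, 475 and 2143 antisense CPM, in which xRescue replicate 2 stood far above the other 3 libraries. It was also read on its own strand, with 4595, 1990, 5116 and 2958 sense reads. The next, gene8810, had 159, 269.9, 158 and 220.4 antisense CPM and no sense read. Named unshared loci included gpx8, a peroxidase of the endoplasmic reticulum, with 139.9, 41.4, 33.7 and 64.0 antisense CPM. RefSeq places gpx8 in a span that overlaps cdc20b, a gene of multiciliated cells, which had 345, 195, 101 and 208 sense CPM. At plxnc1, a semaphorin receptor gene, antisense was 45.1, 136, 25.4 and 62.9 CPM, and RefSeq places cep83, a gene of the centriole's distal appendages, within 2 kb of it. The antisense reads of tagln, the gene of the actin-binding protein transgelin, stayed between 23.0 and 27.5 CPM in all 4 libraries with no RefSeq gene within 2 kb. Of 36 loci with a symbol or LOC identifier, 27 were found in RefSeq, 16 of these overlapped the span of another gene and 22 had another gene overlapping or within 2 kb.

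**Figure D3:**
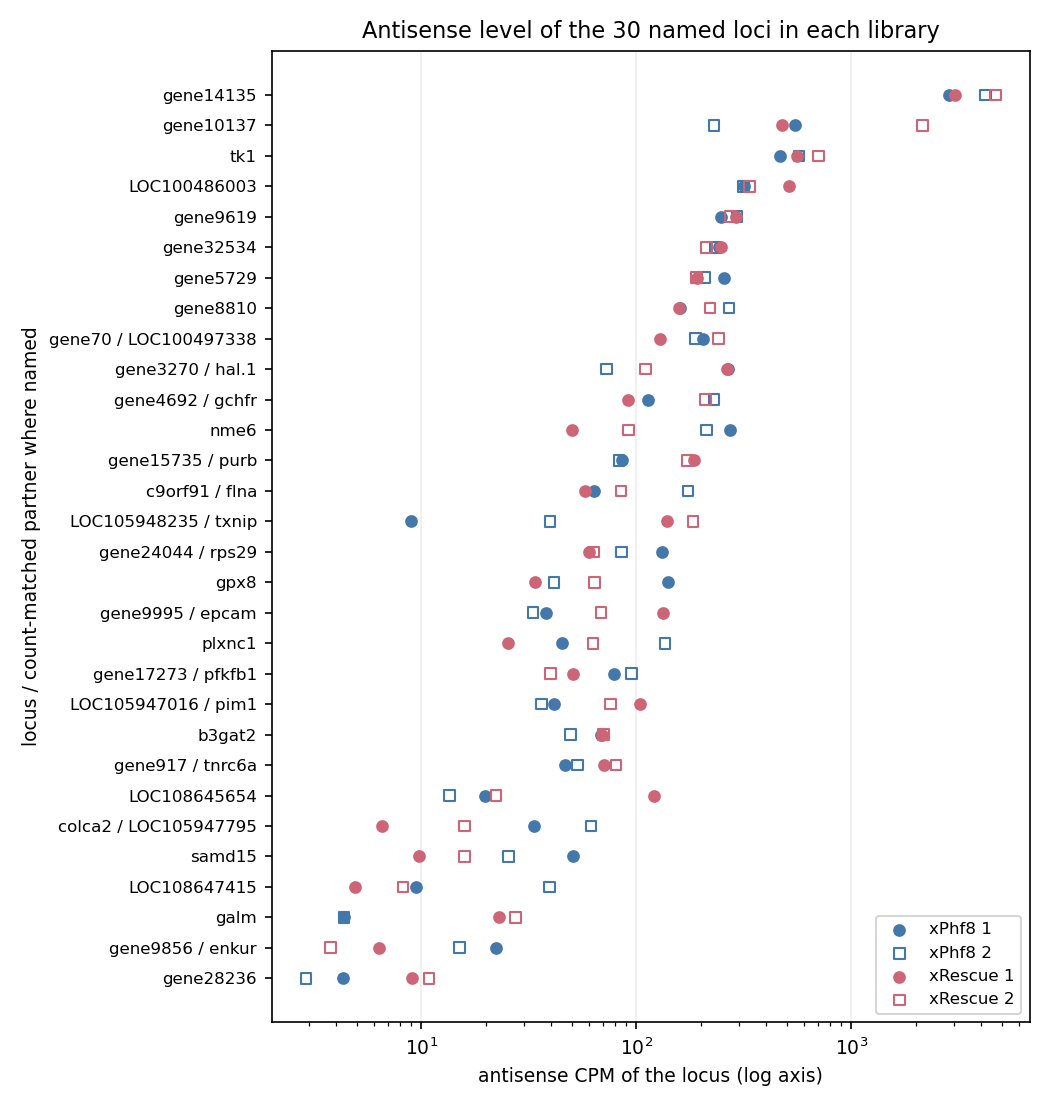
Antisense level (x axis, CPM, log axis) of the 30 named loci in each library (filled circles, replicate 1; open squares, replicate 2; blue, xPhf8; red, xRescue), with the count-matched partner after the slash where it has a name. For gene14135 and gene4692 replicate 2 lies to the right in both groups, while for galm both xRescue libraries lie to the right of both xPhf8 libraries.

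The antisense reads of the 226 loci together did not differ between the groups beyond the spread of the replicates. Their sum was 12422 ± 1024 CPM for xPhf8 against 13767 ± 2514 CPM for xRescue (SD, n = 2), a ratio of 1.11 (exact permutation test, two-sided p = 0.667). The smallest p that 2 against 2 libraries allow is 0.333, so that no single value of this kind can pass 0.05. Because gene14135 held 24.3% to 32.0% of these reads, the sum was also taken without it, and was then 8896 ± 55.4 CPM for xPhf8 against 9918 ± 1350 CPM for xRescue (SD, n = 2). The xRescue values without it, 8964 and 10872 CPM, were both above the xPhf8 values of 8857 and 8935 CPM (exact permutation p = 0.333). The sum over the 69 unshared loci was 2147, 2314, 2196 and 4079 CPM in xPhf8 replicates 1 and 2 and xRescue replicates 1 and 2, so that only xRescue replicate 2 stood apart, in which gene10137 alone held 2143 CPM. The sum over the 109 partnered loci was 3966, 3976, 4191 and 4376 CPM, 1.08 times higher in xRescue (exact permutation p = 0.333).

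The antisense reads outside the 226 loci, from genes that are no members, were higher in both xRescue libraries. They summed to 6809 and 8761 CPM in the xPhf8 replicates against 12617 and 11948 CPM for xRescue, 1.58 times higher in xRescue, with no overlap of the groups and an exact permutation p of 0.333. They came from 11243 genes, and the 10 genes with the largest differences made up 9.55% of the difference. Genes under 100 antisense reads in at least 1 library gave 4768, 6595, 10480.0 and 9678 CPM of it, and the 131 genes at or above that minimum gave 2041, 2166, 2137 and 2270.0 CPM. The number of genes with 1 to 9 antisense reads also moved with the libraries, at 2217 and 878 for xPhf8 against 304 and 946 for xRescue, and its part in the result was not tested. As a share of all antisense reads, the 226 loci went from 61.6% ± 2.26 for xPhf8 to 52.6% ± 5.53 in xRescue (SD, n = 2).

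**Figure D4:**
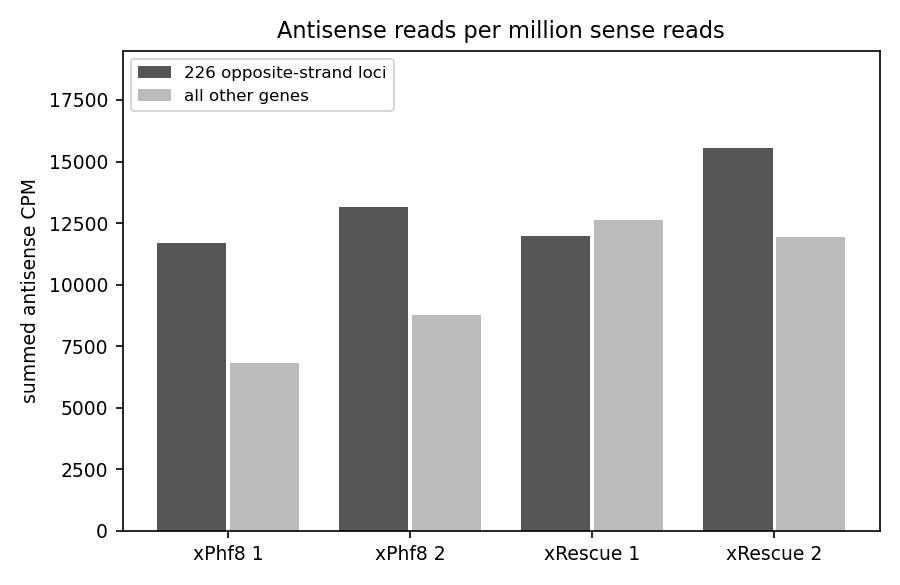
Summed antisense level (y axis, CPM) in each of the 4 libraries (x axis) for the 226 opposite-strand loci (dark bars) and all other genes (light bars). The dark bars lie between 11698 and 15545 CPM with overlapping groups, and the light bars are higher in both xRescue libraries.

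Locus by locus, none of the 226 passed the test between the groups. In edgeR's quasi-likelihood test on the antisense counts of 3644 genes, 7 genes passed a Benjamini-Hochberg adjusted threshold of 0.05, which is 0.192% of those tested, and none of these was an opposite-strand locus. At an unadjusted p under 0.05 there were 14 of the 226 loci (6.19%), 8 higher and 6 lower in xRescue. Over all 3644 genes tested there were 208 (5.71%), 186 higher and 22 lower. DESeq2 called 2 of the 226 loci and 2.39% of all genes tested. The labels do not say whether the replicates came from separate batches of embryos, so that these p-values measure only the spread between the libraries, which may be technical. The 81 loci whose own sense strand had enough reads to test gave no call either, beside 0.0340% of 14716 genes in edgeR's sense fit. In that fit 1455 genes had an unadjusted p under 0.05, and DESeq2 called 589 genes.

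The median antisense log2 difference of the 226 loci, xRescue relative to xPhf8, was 0.00 with quartiles of −0.32 and 0.42. Over all 3644 genes it was 0.53, and over the 131 other genes with at least 100 antisense reads in each library it was 0.03. Of the 226 loci, 114 differences were positive and 112 negative. The groups did not overlap in 86 loci (38.1%, beside 42.9% of all genes tested). In 47 loci (20.8%, beside 31.6%) xRescue had the 2 higher values, and in 39 loci (17.3%, beside 11.3%) the 2 lower ones. Among the 131 other genes at the read minimum, xRescue had the 2 higher values in 27 and the 2 lower ones in 14. The groups did not overlap in 31.3% of these 131 genes. The minimum of 100 reads in every library keeps out loci that are low in 1 group. The median absolute log2 difference between replicates was 0.52 in xPhf8 and 0.51 in xRescue, and that between the group means was 0.35. Means of 2 libraries vary less than single libraries, so that these values cannot be set against each other directly. The classes did not stand apart, with median log2 differences of 0.01 in unshared, −0.04 in partly shared and 0.03 in shared loci.

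The largest differences towards xRescue were at LOC105948235 and at galm, and neither passed edgeR's threshold. At LOC105948235, matched to txnip, antisense reads numbered 239, 1720, 3849 and 4950, or 8.97, 39.7, 138 and 183 CPM. Both xRescue libraries were higher, and as a ratio the xPhf8 replicates were further apart than the xRescue replicates. The log2 difference was 2.72 ± 0.63 (SE, edgeR, adjusted p = 0.124), and txnip sense itself was 25.7, 174, 337 and 439 CPM with a log2 difference of 1.96 (adjusted p = 0.450). Of the antisense reads of LOC105948235, 65.6% were in the overlap. The overlap reads alone were 8.30, 32.0, 94.3 and 104.6 CPM. Their ratio between the group means was 4.94, beside 3.88 for txnip sense. The unshared locus galm, an aldose epimerase gene, had 4.39, 4.36, 23.0 and 27.4 antisense CPM. Its replicates were close to each other in both groups, and the log2 difference was 2.52 ± 0.60 (SE, edgeR, adjusted p = 0.133). These were the 2 loci that DESeq2 called, with adjusted p-values of 0.0146 and 0.0237. Over all alternatives, DESeq2 and edgeR fits included, the adjusted p ranged from 2.77e-13 to 0.749 for LOC105948235 and from 0.00201 to 0.845 for galm. Both low ends came from the edgeR fit with a replicate block, which fits a further term to the same 4 libraries. The labels do not say that same-numbered libraries belong together. The unshared LOC108645654 had a log2 difference of 2.10, but this came from xRescue replicate 1 at 120.6 CPM, with 22.3 CPM in replicate 2 and 19.8 and 13.5 CPM in the xPhf8 libraries. At gene28236 the levels were 4.32, 2.91, 9.03 and 10.9 CPM.

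Towards xPhf8, the largest difference was at colca2, a gene that codes for a transcriptional coactivator in human. It was matched to LOC105947795, and both genes were annotated to chromosome 7. Antisense at colca2 was 33.4, 61.6, 6.58 and 15.8 CPM, without overlap of the groups. The log2 difference was −2.08 ± 0.59 (SE, edgeR, adjusted p = 0.315), and that of LOC105947795 sense was −2.43. Only 31.5% of the antisense reads of colca2 were in the overlap of this pair. At nme6 the log2 difference was −1.77 ± 0.45 (SE, edgeR, adjusted p = 0.191). The unshared LOC108647415 had 9.46, 39.4, 4.93 and 8.22 CPM, and samd15, a gene with a sterile alpha motif domain, had 51.0, 25.5, 9.75 and 15.9 CPM. In both the groups did not overlap, and the lower xPhf8 library came within 2 times of the higher xRescue library.

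Some loci lay beside genes of multiciliated cells, and none of these passed the test. The locus gene9856 was matched to enkur, a gene of the motile cilium, with 37.0% of enkur sense in the overlap. Its antisense reads numbered 594, 651, 176 and 102, or 22.3, 15.03, 6.33 and 3.78 CPM, and enkur sense was 53.0, 36.6, 24.1 and 16.4 CPM. The log2 differences were −1.88 for gene9856 (edgeR, adjusted p = 0.512) and −1.15 for enkur sense (adjusted p = 0.443). The groups did not overlap at gene9856 or at nme6 beside odf3. They did not overlap either at the unshared LOC100493006, which RefSeq places within 2 kb of the ciliary transcription factor gene rfx2, with 19.9, 21.04, 9.999 and 14.2 antisense CPM. The sense level of rfx2 itself was 576, 314, 321 and 278 CPM, with overlapping groups. At gpx8 beside cdc20b and plxnc1 beside cep83 the antisense groups overlapped, while cep83 sense was 191, 125, 41.5 and 74.2 CPM. These 5 loci were grouped after their values had been seen, so that no direction is read from them as a group. The summed sense level of the multiciliated cell markers was 1577 and 994 CPM for xPhf8 against 582 and 799 CPM for xRescue, with 3 of 6 markers lower in both xRescue libraries. Among these markers, foxj1 was at 184, 103, 74.3 and 70.1 and dnah9 at 85.2, 85.3, 47.3 and 89.2 sense CPM. The summed ionocyte markers were at 409, 411, 107.7 and 377 sense CPM, with 2 of 4 lower in both xRescue libraries. The summed goblet cell markers were at 2267, 3909, 2710 and 4153 sense CPM, with 1 of 4 lower in both. Of the markers of other tissues, twist1 was at 0.338, 0.208, 8.52 and 9.40 and sox17a at 6.16, 2.40, 44.5 and 16.9 sense CPM. The neural gene ncam1 was at 11.1, 25.7, 2.19 and 8.40 sense CPM. The part of cell composition in the antisense levels was not tested.

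Antisense at a locus mostly moved as the sense count of its partner did. Of the 109 pairs, 82 had log2 differences of the same sign on both counts, 88 were within 0.5 of each other, and the median absolute gap was 0.19. Since the overlap belongs to both counts, this is a description of shared reads. Where the overlap was at least 50% of partner sense, 18 of 19 pairs had the same sign with a median gap of 0.06. Where it was under 10%, 20 of 35 pairs had the same sign with a median gap of 0.45. The purb pair had log2 differences of 1.09 on the locus and 1.14 on purb sense, and the pim1 pair had 1.21 and 1.37. None of the 109 partners passed edgeR's threshold on its sense count. DESeq2 called 7 of the 109 partners, beside 589 of all 14716 genes tested on sense counts, and these shares were not compared by a test.

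In 5 pairs the locus and the partner differed by more than 1 on the log2 scale. Their overlaps ran from 0.757% of partner sense at gene10474 to 11.1% at gene592. The widest gap, 1.47, was at gene10474, with a log2 difference of 0.36 beside −1.11 for syne1 sense. At gene9995, matched to epcam, antisense was 37.8, 33.0, 133 and 68.6 CPM while epcam sense was 1226, 1175, 1768 and 1407 CPM. Both counts were higher in both xRescue libraries, with log2 differences of 1.51 ± 0.48 at gene9995 (SE, edgeR, adjusted p = 0.409) and 0.40 for epcam sense (adjusted p = 0.624). Of the antisense reads of gene9995, 81.1% were in the overlap. The overlap reads alone were 35.8, 29.8, 101.5 and 52.2 CPM, a ratio of 2.34 between the group means beside 1.32 for epcam sense, and the gap between these ratios was not tested. At gene20435, matched to ppia and with a mean of 6.49 antisense CPM, the log2 difference was 0.92 ± 0.77 beside −0.41 ± 0.26 for ppia sense (SE, edgeR).

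**Figure D5:**
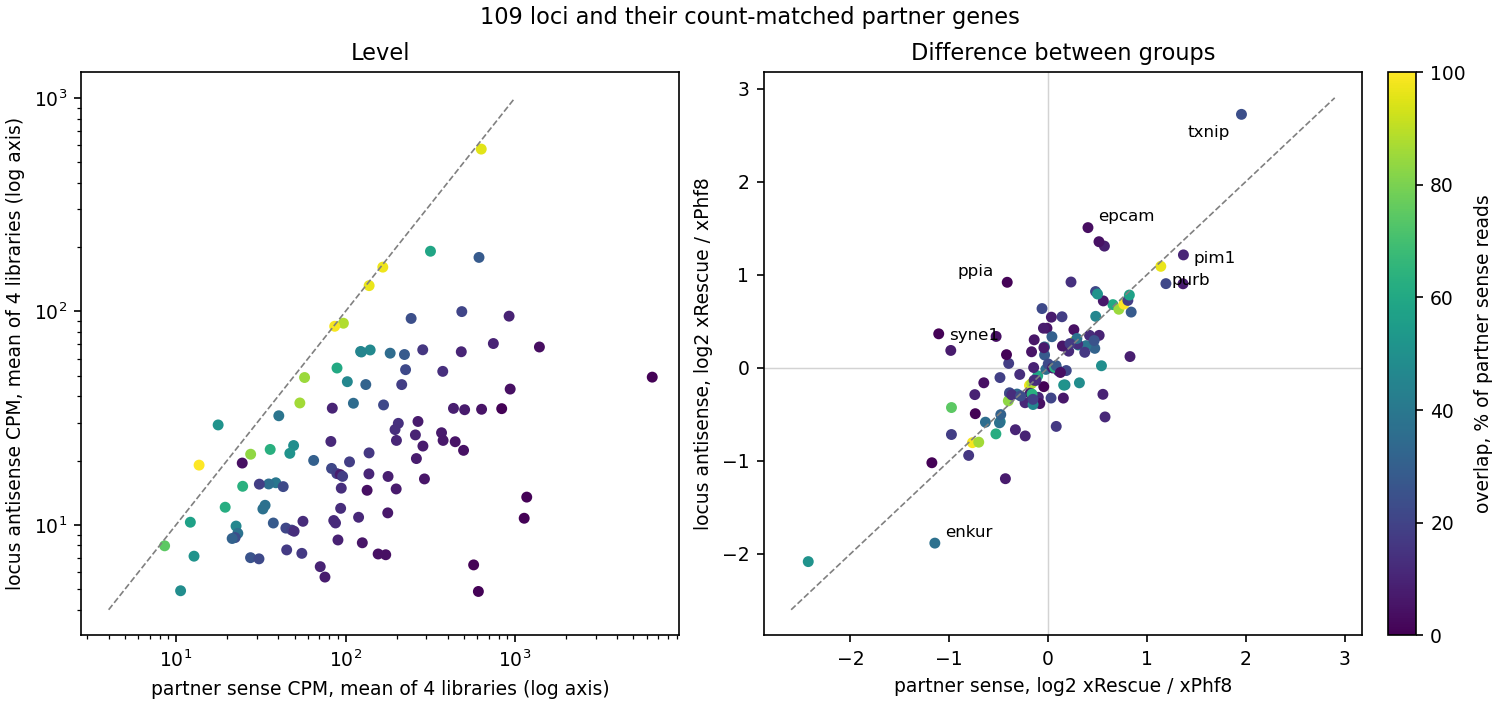
The 109 loci with a count-matched partner, coloured by the percentage of the partner's sense reads in the overlap. Left, mean partner sense level (x axis, CPM, log axis) against mean locus antisense level (y axis, CPM, log axis); right, log2 difference xRescue to xPhf8 of partner sense (x axis) against that of locus antisense (y axis); dashed lines mark equality, and pairs with a large overlap lie on or near both.

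Among the loci with most reads, some varied little between the libraries and others did not. The antisense level of gene14135 was 2841, 4211, 3025 and 4672 CPM, with replicate 2 above replicate 1 in both groups and a log2 difference of 0.13 ± 0.44 (SE, edgeR, adjusted p = 1.00). That of gene9619 stayed between 247 and 294 CPM, that of gene32534 between 212 and 247 CPM and that of gene5729 between 191 and 256 CPM. At LOC100486003, which RefSeq places across galk1, the gene of galactokinase, and the histone gene h3-3b, antisense was 316, 314, 514 and 335 CPM, with only xRescue replicate 1 apart. At gene70, matched to LOC100497338, it was 205, 189, 129 and 242 CPM, in which the xRescue replicates enclosed both xPhf8 replicates.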

How the data were processed

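Total RNA of 4 libraries was depleted of ribosomal RNA and sequenced as 50 bp paired-end reads from directional libraries by the authors, who aligned them with STAR (version 2.7.1a) to the Xenbase v9.1 genome. The deposited files hold STAR's whole-number counts per gene, not normalised and not pooled, as unstranded, forward and reverse columns. The reverse column was taken as sense and the forward column as antisense. Only uniquely mapped reads are in STAR's counts, and those shared between near-identical gene copies are missing from them. Which of the authors' depletion kits was used for each library is not stated. Reads on features without a gene identifier, 4.18% to 9.90% of sense reads on features, were left out.

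Antisense counts of genes with at least 1 read in 3 of 4 libraries were compared in edgeR (version 4.0.16, R 4.3.3; glmQLFit, glmQLFTest) with the sense sum as library size and factors of 1, with Benjamini-Hochberg adjustment at 0.05. Log2 differences are fitted values, and SE is the absolute log2 difference divided by the square root of F. No pseudocount was added to CPM, except in the correlation of deviations between same-numbered libraries. DESeq2 (version 1.42.0), other scalings and filters, a replicate block and leaving out each library were alternatives. In simulated counts with 200 of 3644 genes changed 8-fold, the fit recovered 100% at a dispersion of 0.05 and 28.5% at 0.4. The changed genes were drawn from those with a mean of at least 100 reads. The common dispersion of the antisense counts over all genes was higher than both settings. Its square root, the biological coefficient of variation, was 1.19, and recovery at that noise was not simulated. Library sums were compared by exact permutation. Single-library values are given without an error, and their counting error would leave out the spread between replicates. Reads have no molecular identifiers, so that copies of 1 molecule were not told apart.

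The members and lists were chosen with earlier results of these data known. The named loci were the 15 with the highest antisense level among those with a symbol on either side of a pair, the 10 with the highest level of all, up to 5 per direction with the largest differences and no overlap of the groups, and those at the read minimum; others were chosen after their values were seen. Names and chromosomes came from the annotation columns of the study's supplementary tables, which name 6622 of the identifiers, and neighbours from RefSeq (UCB_Xtro_10.0). The builds differ, so that no coordinates or sequences are given.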

Additional observations from a re-analysis of the deposited data

Results flagged for a closer look

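Features that carry no gene identifier enter no comparison above; they took 4.18% and 5.98% of sense reads on features in the xPhf8 replicates against 9.90% and 7.51% for xRescue, a mean of 5.08% against 8.71%, with no overlap of the groups (exact permutation p = 0.333, the smallest that 2 against 2 libraries allow).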

How the results depend on the processing

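With 2 libraries a group, the biological coefficient of variation of the antisense counts was 1.19. Antisense calls over all genes were 7 as reported and 87 with DESeq2, 87 with no filter on low counts, 25 with a minimum of 10 reads per library, 0 with filterByExpr, 0 with TMM factors from the antisense counts, and 0 to 0 when each library was left out. Calls among the 226 loci were 0 as reported and 2 with DESeq2, beside 2.39% of all genes tested there. They were 5 of the 87 calls with no filter, where the 226 loci and 11243 other genes were tested. With that minimum of 10 reads they were 3 of the 25 calls, and the share of genes called there is not given. Neither count is read as a result about the loci. The filters change the number of genes tested, so that counts under different filters are not set against each other. The same-numbered libraries share only a number. With the replicate block there were 76 calls among 3644 genes, 8 of them among the 226 loci, and 626 sense calls among 14716 genes. The correlation of deviations, on log2 of CPM with 1 added, was 0.16 across all genes tested and 0.37 across the 226 loci. The added 1 narrows the deviations of genes with low CPM, so that these 2 values are not set against each other. In edgeR the block gave adjusted p-values of 2.77e-13 for LOC105948235, 1.24e-05 for nme6, 0.000465 for colca2 and 0.00201 for galm. It also gave 0.00125 for gene10137, 0.00658 for LOC108645654, 0.00691 for gene9995 and 0.0413 for gene15735. At gene10137 and LOC108645654 a single xRescue library stood far above the others. Sense calls were 5 as reported and 589 with DESeq2. The median log2 difference of the 226 loci was −0.14 with TMM factors from the sense counts, −0.65 with TMM factors from the antisense counts and −0.36 with the antisense sums as library size, while that of all genes tested was 0.39, −0.12 and 0.16. Under these scalings and the reported one, the median of the 226 loci lay 0.52 to 0.53 below that of all genes. A change of scaling shifts all genes nearly alike, so that this gap could hardly change and its constancy is no separate result. At the reported scaling, the 131 other genes with at least 100 antisense reads in each library had a median of 0.03. The summed level, 0.15 on the log2 scale, was −0.23 as a share of all antisense reads and −0.0512 to 0.32 with a library left out, turning only without xRescue replicate 2. The TMM factors from the sense counts were 0.982 and 0.918 for xPhf8 against 1.08 and 1.03 for xRescue. That scaling lowers the xRescue sums relative to the xPhf8 sums. The sums without gene14135, higher in both xRescue libraries, are given at the reported scaling only. Signs turned for gene14135 (−0.0248) and gene9619 (−0.0877) with TMM factors from the sense counts. With those from the antisense counts they turned for tk1 (−0.37), gene3270 (−0.67), b3gat2 (−0.45), gene917 (−0.0639), gene14135 (−0.50), LOC100486003 (−0.27) and gene9619 (−0.61). With the antisense sums they turned for tk1 (−0.0862), gene3270 (−0.27), b3gat2 (−0.15), gene14135 (−0.24) and gene9619 (−0.29). With a library left out, ranges that crossed 0 were −0.22 to 0.44 for gene14135, −1.28 to 0.17 for c9orf91, −0.16 to 0.0579 for gene32534, −0.63 to 1.37 for gene3270, −1.52 to 0.24 for gpx8, −0.90 to 0.41 for gene4692, −0.61 to 0.30 for gene70, −0.51 to 0.25 for gene8810 and −0.0529 to 0.20 for gene9619. The other values of the 30 named loci kept their sign, and the cause of the turns was not tested. With a minimum of 50 or 200 antisense reads there were 310 or 158 loci, and 235 to 270 loci met the rule with a library left out.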
